A study of Mus musculus with 10 samples.

Results

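The genes of oxidative phosphorylation were taken from a table of 55385 mouse genes as the protein-coding genes of GENCODE M21 whose symbols name subunits of the respiratory chain or the ATP synthase. The symbol rule covered the Ndufa, Ndufb, Ndufc, Ndufs and Ndufv genes of complex I, Sdha to Sdhd of complex II, the Uqcr genes of complex III, the Cox4 to Cox8 genes of complex IV, the Atp5 genes of complex V, and the genes of mitochondrial DNA for these complexes. It found 98 genes, of which 85 are nuclear and 13 are mitochondrially encoded. The nuclear genes comprise 35 of complex I, 4 of complex II, 8 of complex III, 20 of complex IV and 18 of complex V. Ndufa4 and Ndufa4l2, named as complex I genes, were counted with complex IV, where the Ndufa4 protein resides. The symbol Atp5o is carried by 2 identifiers, and Atp5s, caught by its name, is not a subunit of the enzyme.

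The cells were neutrophils sorted as Tomato+ from tumours of squamous cell carcinoma (SCC) cells grafted on CatchupIVM-red mice, a line in which the locus of the neutrophil gene Ly6g drives a recombinase and a red fluorescent protein. All groups share this host. The SCC cells were either the parental Sox2low cells, called control below, or cells with high levels of the transcription factor Sox2, called Sox2Hi. The sample descriptions carry C57 in every group and GFP for the control graft where the other has Sox2, without saying what these stand for. Tumour-bearing mice were left untreated, called naive, or received anti-PDL1 with a CD40 agonist, called treated. Bulk RNA was sequenced from 3 naive and 2 treated samples of each graft, 10 libraries in all. Neither the age of the mice, nor how many mice or tumours went into a sample, is given in the labels. Replicates are samples labelled as such, so p-values measure the spread between these samples only, which may be partly technical.

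Oxidative phosphorylation passes electrons from NADH (complex I) or succinate (complex II) through ubiquinone, complex III and cytochrome c to oxygen at complex IV, and the proton gradient built on the way drives ATP synthesis by complex V. Mitochondrial DNA encodes core subunits of complexes I, III, IV and V, transcribed as long precursors that are then cut into mRNAs. The nucleus encodes all of complex II and every other subunit. Mature neutrophils hold few mitochondria and draw most of their ATP from glycolysis.

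Library totals ran from 13815734 to 22986193 counts. Tomato transcript counts were between 135 and 514 in every library. Summed neutrophil markers stood at 14830 to 23330 CPM (counts scaled to a common library total) in naive control, 30830 to 32260 in treated control, 15230 to 20490 in naive Sox2Hi and 19210 to 22640 in treated Sox2Hi libraries, while Ly6g itself, the locus that carries the reporter, had only 32 to 246 counts. Background was estimated from the counts per exon kilobase on 1464 genes of olfactory and vomeronasal receptors, which were assumed to be silent here. Extended over all genes, that rate came to a mean of 6.36% ± 1.77 (SD, n = 3) of naive and 1.66% ± 0.109 (SD, n = 2) of treated control libraries, and to 3.77% ± 0.144 (SD, n = 3) of naive and 4.50% ± 0.650 (SD, n = 2) of treated Sox2Hi libraries. The erythroid markers summed to 628 to 1658, 38.1 to 227, 308 to 694 and 24.8 to 54.0 CPM in the same order. The fibroblast and endothelial markers summed to 298 to 821, 73.8 to 92.7, 512 to 759 and 103 to 324 CPM. The macrophage and dendritic cell markers summed to 923 to 1347, 843 to 1264, 1369 to 1919 and 950.5 to 1532 CPM, so the naive Sox2Hi libraries lay above the naive control ones. The keratinocyte markers summed to 612 to 1912, 315 to 684, 835 to 1089 and 469.5 to 809.6 CPM, without overlap between naive and treated Sox2Hi libraries. The T and NK cell markers summed to 47.4 to 83.4, 79.0 to 272, 36.3 to 118 and 115 to 216 CPM. All markers of these 5 lists were detected in every library, and the part of these other sources in the results below was not tested.

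Transcripts of the 13 mitochondrially encoded genes took 2.11%, 1.43% and 2.36% of all counts in the control naive libraries and 1.74% and 0.941% in the control treated ones. In Sox2Hi tumours they took 1.60%, 2.02% and 2.24% in naive and 1.57% and 1.58% in treated libraries. Naive and treated values overlapped in the control group, and the treated Sox2Hi values lay just below the naive ones. Without mitochondrial rRNA and the abundant Gm10800 in the total, the Sox2Hi values overlapped too, with a lowest naive value of 1.67% and treated values of 1.66% and 1.74%. Gm10800 took 7.58% to 9.12% of naive and 0.503% and 0.686% of treated control counts, and 4.24% to 5.49% of naive and 5.29% and 8.67% of treated Sox2Hi counts, and its part in the results was not tested. The 85 nuclear genes together took 1.04%, 0.843% and 1.12% of naive and 0.708% and 0.857% of treated control counts, and 0.913%, 0.988% and 1.12% of naive and 0.818% and 0.762% of treated Sox2Hi counts. The ratio of mitochondrial to nuclear counts was 1.95 ± 0.222 (SD, n = 3) in control naive, 1.93 ± 0.160 (SD, n = 3) in Sox2Hi naive and 2.00 ± 0.114 (SD, n = 2) in treated Sox2Hi libraries. The control treated libraries stood apart from each other at 2.45 and 1.10. In a bulk library, fewer cells of a type and less RNA per cell cannot be told apart.

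**Figure D1:**
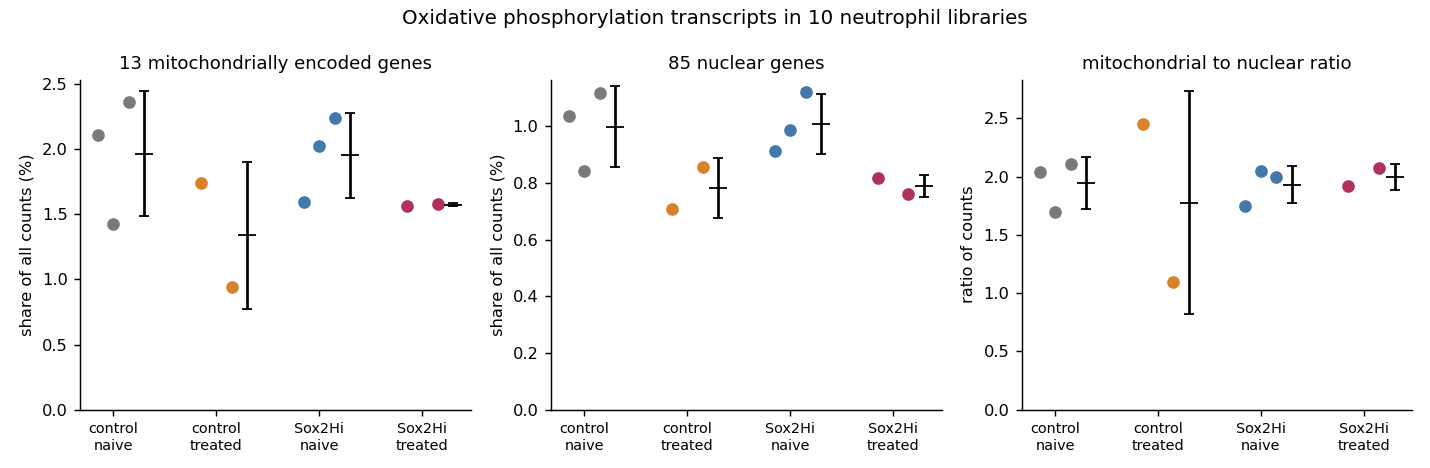
Share of all counts taken by the 13 mitochondrially encoded and the 85 nuclear genes, and the ratio of both, on linear axes from 0. Each point is 1 library, and bars beside them give the mean and SD of each group (n = 3, 2, 3 and 2). The mitochondrial to nuclear ratio lies between 1.69 and 2.11 in all libraries but the control treated pair, at 2.45 and 1.10.

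Per kilobase of exon, the highest levels of the family were those of mitochondrial transcripts. The mean over the 10 libraries was 5874 CPM per kilobase for mt-Atp8, 5623 for mt-Cytb, the cytochrome b of complex III, and 4152 for mt-Atp6. The complex IV core subunits followed with 1704 for mt-Co1, 1482 for mt-Co2 and 1150 for mt-Co3. Among mitochondrial transcripts mt-Nd3 was lowest at 39.2, and it was below many nuclear members. mt-Nd5 at 200, mt-Nd4l at 194 and mt-Nd6 at 170 were also below the highest nuclear members. The nuclear genes with the highest levels per kilobase were Cox6b1 at 268, Cox8a at 250 and Uqcr10 at 244. Lengths join all annotated exons of a gene, so this order depends on the annotation. Atp5l, for example, has 6.44 kb of exon and 309 coding bases, and its 251 CPM became 39.0 per kilobase. Levels of some mitochondrial neighbours cannot be separated fully, because their reading frames share bases. The frames of mt-Atp8 and mt-Atp6 overlap over 43 bases on the plus strand of GRCm38, at chrM:7927-7969, and those of mt-Nd4l and mt-Nd4 over 7 bases at chrM:10167-10173. The shared bases are shown with the start codon of the downstream gene in capitals.
mt-Atp8 and mt-Atp6: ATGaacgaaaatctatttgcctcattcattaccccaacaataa
mt-Nd4l and mt-Nd4: ATGctaa
Reads within these stretches belong to both genes. Many nuclear members also have processed pseudogenes, and mitochondrial DNA has nuclear copies, so reads may be split among near-identical sequences.

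The first comparison asked how treatment changed neutrophils of control tumours. The 11274 genes whose mean over the 10 libraries reached 5 CPM were tested with edgeR's quasi-likelihood test. A call needed an adjusted p (Benjamini-Hochberg, over all of these genes) under 0.05. Of the 98 members 89 were tested, 76 nuclear and 13 mitochondrial. In treated control tumours 14 nuclear members rose, 2 fell and no mitochondrial member was called. Among all tested genes 57.3% were called, 24.1% higher and 33.1% lower, so the share of called members (18.0%) was below that of all genes. The median log2 fold change was 0.07 over the nuclear members, -0.08 over the mitochondrial ones and -0.18 over all tested genes. These directions depend on scaling. With scaling factors from 29648 genes, weakly detected ones included (all-gene scaling), 40 members rose and none fell, all 14 risen members among them, against 34% of those genes called (18.7% higher, 15.3% lower). With library totals alone, 1 member rose and 39 fell, against 11.2% higher and 55.3% lower of all genes. The treated and naive control libraries did not overlap for 27 nuclear members that were higher and 4 that were lower, against 29.6% and 38.8% of all tested genes.

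The risen members were spread over complexes I, II, IV and V. In complex I, 5 of 35 nuclear genes rose and none fell, in complex II 3 of 4 rose, in complex III 0 of 8, in complex IV 4 of 12 tested, and in complex V 2 of 17 rose and 2 fell. The medians of these groups were 0.06, 0.48, 0.23, 0.28 and -0.08 on the log2 scale.

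Complex II showed the highest median of the 5 groups in this comparison. Sdhd, a membrane anchor of succinate dehydrogenase that takes part in ubiquinone binding (chr9:50596357-50603812, minus strand), stood at 112, 106 and 113 scaled CPM in naive and at 195 and 200 in treated control libraries. It was at 116, 115 and 111 in naive and 134 and 155 in treated Sox2Hi libraries. The treated values exceeded all naive values in both grafts. Sdhd rose by 0.84 ± 0.13 (log2, SE; adjusted p = 0.000539) in control tumours and was called in all 25 alternative fits of this contrast. Its difference in Sox2Hi tumours was 0.34 ± 0.13 (adjusted p = 0.0781). Sdhb, the iron-sulfur subunit, rose by 0.56 ± 0.16 (adjusted p = 0.0134), from 239 to 285 scaled CPM in control naive to 340 and 439 in control treated libraries. Sdha, the flavoprotein that oxidises succinate, rose by 0.41 ± 0.15 (adjusted p = 0.0377), and this call was kept in 15 of the 25 alternatives. Sdhc, the other membrane anchor, had a log2 difference of 0.06 ± 0.17 (adjusted p = 0.779).

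In complex IV, Cox5b, Cox6b1, Cox7a2 and Cox8a, all structural subunits around the mitochondrially encoded core, rose in treated control tumours. Cox5b (chr1:36691449-36693681, plus strand) was at 182, 172 and 170 scaled CPM in naive and 249 and 322 in treated control libraries, a rise of 0.71 ± 0.16 (log2, SE; adjusted p = 0.00402). Cox6b1 (chr7:30616861-30626151, minus strand) was at 194, 170 and 182 in naive and 248 and 330 in treated control libraries and rose by 0.67 ± 0.17 (adjusted p = 0.00737). Both groups were separate for each gene, and the spread between the treated libraries was larger than among the naive ones. Cox7a2 rose by 0.52 ± 0.16 (adjusted p = 0.0179) and Cox8a by 0.41 ± 0.14 (adjusted p = 0.0321), the latter lost without control treated replicate 2, control naive replicate 1 or 3, or Sox2Hi naive replicate 2. Cox7a2 lost its call without control treated replicate 2. Cox4i1, the ubiquitous form of subunit 4, had a difference of 0.11 ± 0.17 (adjusted p = 0.582), Cox5a 0.41 ± 0.17 (adjusted p = 0.058) and Cox6a1 0.25 ± 0.15 (adjusted p = 0.173). Ndufa4 had -0.30 ± 0.26 (adjusted p = 0.339). Cox7a2l, which joins complexes III and IV into supercomplexes, had 0.31 ± 0.15 (adjusted p = 0.103).

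Complex V members moved in both directions. Atp5l, the g subunit of the membrane sector (chr9:44912557-44920742, minus strand), was at 257, 218 and 243 scaled CPM in naive and 373 and 440 in treated control libraries. In Sox2Hi tumours it was at 201, 190 and 203 in naive and 252 and 303 in treated libraries. Treated libraries were above naive ones in both grafts. Atp5l rose by 0.76 ± 0.15 (adjusted p = 0.00163) in control tumours and by 0.49 ± 0.15 (adjusted p = 0.0392) in Sox2Hi tumours, the second call being kept in 5 of 25 alternatives. Atp5mpl, a small proteolipid bound to the enzyme, rose by 0.53 ± 0.16 (adjusted p = 0.0181) in control tumours. Atp5g2, 1 of 3 genes for the c subunit of the rotor ring (chr15:102662864-102672352, minus strand), was at 17.1, 16.8 and 11.3 scaled CPM in naive and 10.4 and 6.37 in treated control libraries. It was at 20.1, 15.2 and 13.6 in naive and 7.20 and 9.82 in treated Sox2Hi libraries. Treated libraries were below naive ones in both grafts, at levels near the low end of the family. The ratio of Atp5g2 to Atp5g1 counts, which needs no scaling, overlapped in control tumours, at 0.094, 0.115 and 0.0576 in naive and 0.0808 and 0.0404 in treated libraries, and was lower without overlap in treated Sox2Hi tumours (0.566-fold). Atp5g2 fell by 0.85 ± 0.29 (log2, SE; adjusted p = 0.0273) in control and by 0.93 ± 0.29 (adjusted p = 0.042) in Sox2Hi tumours. With all-gene scaling the values were -0.29 (adjusted p = 0.373) and -1.20 (adjusted p = 0.0324). The other c subunit genes were not called, at -0.28 ± 0.17 for Atp5g1 (adjusted p = 0.178) and -0.32 ± 0.21 for Atp5g3 (adjusted p = 0.214) in control tumours. The catalytic subunits Atp5a1 and Atp5b had differences of 0.00 ± 0.16 (adjusted p = 0.987) and -0.08 ± 0.16 (adjusted p = 0.694). Atp5s fell by 0.61 ± 0.23 (adjusted p = 0.0417), a call kept in 7 of 25 alternatives, and with a mean of 8.65 CPM it was the member just above the filter.

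In complex I the risen genes were Ndufs4, Ndufa1, Ndufa3, Ndufa6 and Ndufb7, all accessory subunits; Ndufs4, Ndufa1, Ndufa6 and Ndufb7 are named after their values were seen. Ndufs4 (chr13:114287795-114388258, minus strand), a subunit needed for stable assembly of the NADH-oxidising arm, was at 68.2, 55.1 and 67.5 scaled CPM in naive and 99.4 and 97.2 in treated control libraries. It rose by 0.63 ± 0.15 (log2, SE; adjusted p = 0.00498). The other 4 rose by 0.45 to 0.55. Ndufv1, the core subunit that binds NADH, was not called, with a log2 difference of 0.09 ± 0.16 (adjusted p = 0.635). Ndufs1, an iron-sulfur core subunit of the same arm, had -0.40 ± 0.16 and was not called either (adjusted p = 0.05002). Ndufb8 had -0.03 ± 0.17 (adjusted p = 0.905). In complex III the core protein Uqcrc1 had -0.14 ± 0.18 (adjusted p = 0.519) and the iron-sulfur protein Uqcrfs1 0.37 ± 0.16 (adjusted p = 0.0719).

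Of the 14 rises, those of Sdhd, Ndufs4, Cox5b, Cox6b1 and Atp5l were kept when any of the 10 libraries was left out, and 6 of the 14 were kept without control treated replicate 2. Without that library 8 members were called higher, mt-Co1 and mt-Co3 among them, and none lower, against 24.6% and 18.6% of all genes. Without replicate 1 it was 25 and 2, against 23.9% and 24.2%. In both of these fits the treated control arm is 1 library, assumed to vary like the other groups. Only the totals-based fit lost Ndufs4, Cox5b, Cox6b1 and Atp5l among the 25 alternatives.

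**Figure D2:**
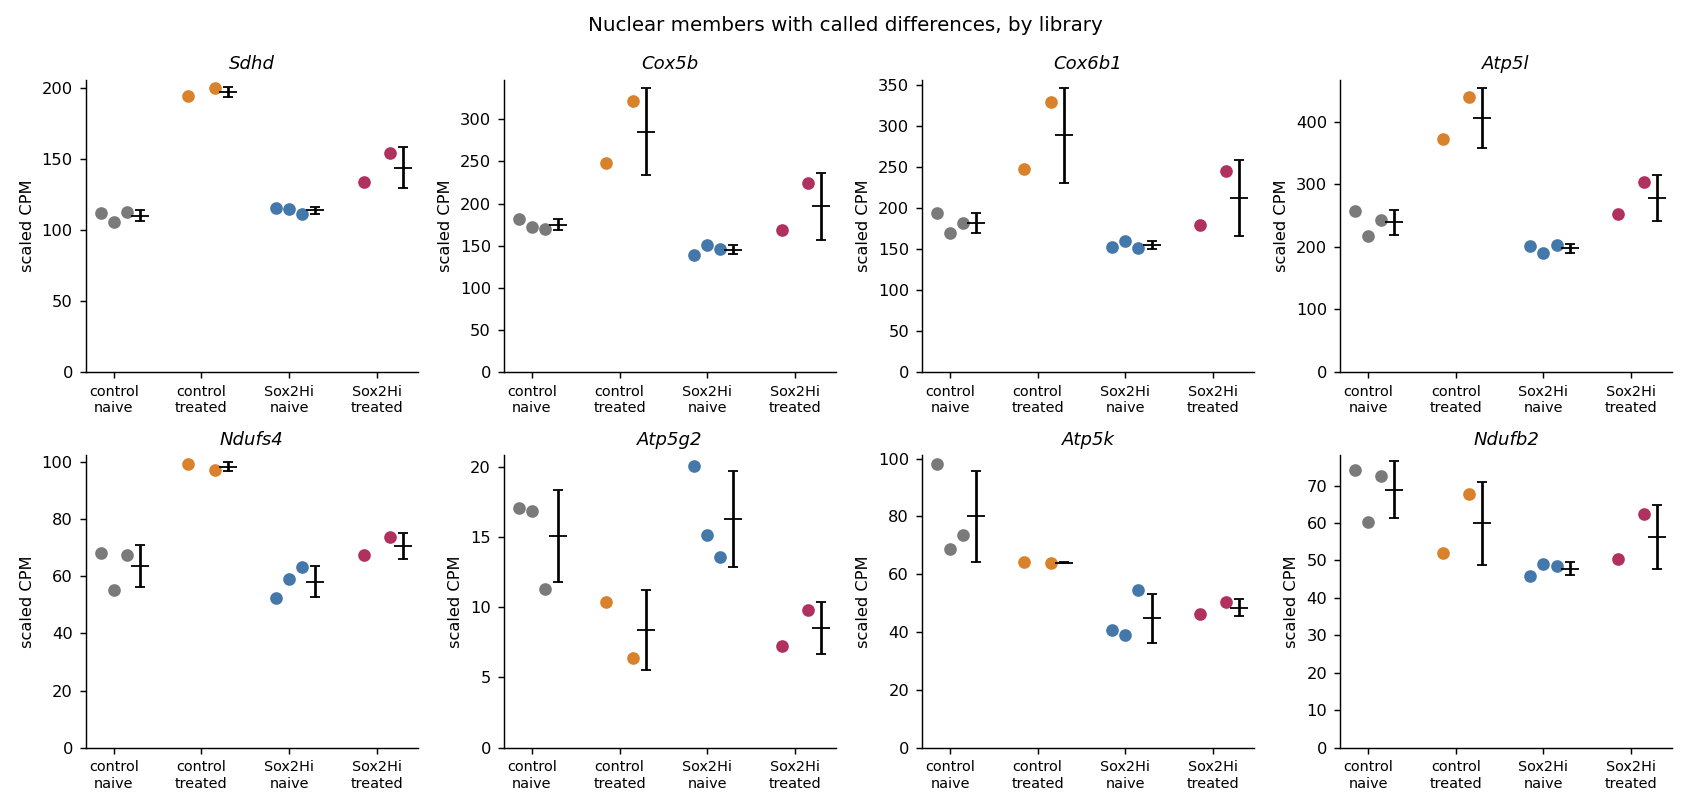
Scaled CPM of 8 nuclear members in each library, on linear axes from 0. Points are single libraries, bars the mean and SD (n = 3, 2, 3 and 2). The control treated points of Sdhd, Cox5b, Cox6b1, Atp5l and Ndufs4 lie above all control naive points, those of Atp5g2 below them, and Atp5k and Ndufb2 are lower in Sox2Hi naive than in control naive libraries.

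The second comparison asked the same of Sox2Hi tumours, where 2 members rose, 1 fell and no mitochondrial member was called, against 21.6% of all genes called (15% higher, 6.57% lower). The risen members were Atp5l and Ndufa3 and the fallen one Atp5g2. Ndufa3 was at 60.3, 64.8 and 64.1 scaled CPM in naive and 77.1 and 108 in treated Sox2Hi libraries, a rise of 0.55 ± 0.17 (adjusted p = 0.0396) that 5 of 25 alternatives kept. In control tumours Ndufa3 rose by 0.46 ± 0.17 (adjusted p = 0.0361). The median log2 fold change was -0.06 over the nuclear members, 0.13 over the mitochondrial ones and 0.09 over all tested genes. With all-gene scaling 0 members rose and 1 fell, against 3.61% of those genes called (1.79% higher, 1.82% lower). Other scalings turned the balance of calls as well, with 0 higher and 4 lower with RLE factors (9.27% and 10.7% of all genes), 1 and 8 with DESeq2 (12.3% and 14.8%), and 0 and 15 with library totals alone (5.94% and 21%). The libraries were separate for 14 nuclear members that were higher (37% of all genes) and 23 that were lower (25.4%), and for 2 mitochondrial members, both higher.

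Between grafts, the naive libraries were compared first. No member was higher in Sox2Hi tumours and 2 were lower, Atp5k and Ndufb2, against 14% of all genes called (2.1% higher, 11.9% lower). Atp5k, the e subunit of the ATP synthase that helps dimers form (chr5:108433244-108434448, minus strand), was at 98.0, 68.6 and 73.5 scaled CPM in control naive and 40.9, 38.9 and 54.5 in Sox2Hi naive libraries. It was at 64.1 and 64.0 in control treated and at 46.3 and 50.5 in treated Sox2Hi libraries. Every Sox2Hi library was below every control library. Atp5k was lower by a log2 of -0.84 ± 0.18 (SE; adjusted p = 0.015) in naive tumours and -0.40 ± 0.22 (adjusted p = 0.202) in treated ones. Ndufb2, an accessory subunit of complex I (chr6:39592574-39603382, plus strand), was at 74.1, 60.2 and 72.4 in control naive and 45.8, 49.2 and 48.6 in Sox2Hi naive libraries, a log2 difference of -0.53 ± 0.15 (adjusted p = 0.0421). Ndufb2 was called in 7 of 26 alternatives and Atp5k in 17. The replicate numbers were taken to pair the naive libraries, from these same data and not from the labels. A fit of these 6 libraries with the pairs as a block called 5 members, against 8.3% higher and 13.7% lower of all genes. Atp5k, Ndufb2 and Ndufa3 were lower in it, and Sdha and Ndufv1 higher. With limma-voom 3 members were higher and 30 lower, against 12.6% and 24.1% of all genes. The libraries were separate for 2 nuclear members that were higher (10.7% of all genes) and 13 that were lower (21.8%). With all-gene scaling 2 other members were called, both higher, against 1.87% of those genes (1.66% higher, 0.209% lower), and Atp5k had -0.47 (adjusted p = 0.17). The sign of the family turned with the scaling, from 66 of 89 members lower (median -0.14) to 83 of 93 higher (median 0.22).

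In treated tumours no member was higher in Sox2Hi than in control tumours and 3 were lower, against 20.9% of all genes called (15% higher, 5.87% lower). The 3 were Sdhd at -0.45 ± 0.14 (log2, SE; adjusted p = 0.0444), Atp5l at -0.55 ± 0.16 (adjusted p = 0.039) and Atp5mpl at -0.57 ± 0.18 (adjusted p = 0.0492). Sdhd was at 195 and 200 scaled CPM in control treated and 134 and 155 in treated Sox2Hi libraries. Atp5mpl was at 77.4 and 104 in control treated and 54.6 and 67.8 in treated Sox2Hi libraries. The groups did not overlap for these genes. The libraries were also separate, Sox2Hi below control, for 39 of the 76 nuclear members, against 26.3% of all tested genes, and for none of the 13 mitochondrial members. Above control, 1 nuclear member was separate, against 34.3% of all genes. The median over the nuclear members was -0.25, with 69 of 76 negative, against 0.04 over all tested genes and 0.00 over the mitochondrial members. With all-gene scaling 22 members were lower and none higher (of those genes 13.7% were called, 4.18% higher and 9.57% lower), whereas with library totals alone none was called and the nuclear median was 0.05. None of the 3 calls remained without control treated replicate 2, control naive replicate 1, any of the 3 Sox2Hi naive replicates or Sox2Hi treated replicate 1.

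The interaction asked whether the response to treatment differed between grafts. No member was called by edgeR and 2 had an unadjusted p under 0.05, against 19.8% of all tested genes called. DESeq2 called 6, all lower (14.6% of all genes higher, 15.1% lower), and limma-voom 0 (18.6% and 5.82%). Sdhd had -0.50 ± 0.18 (log2, SE; adjusted p = 0.0807) and Sdha -0.52 ± 0.21 (adjusted p = 0.122). The nuclear median was -0.13, with 62 of 76 negative, and -0.94 with all-gene scaling, under which 41 members were called lower and 27.5% of those genes were called (11.3% higher, 16.2% lower). The comparisons above share libraries pairwise, so their values are given side by side only.

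**Figure D3:**
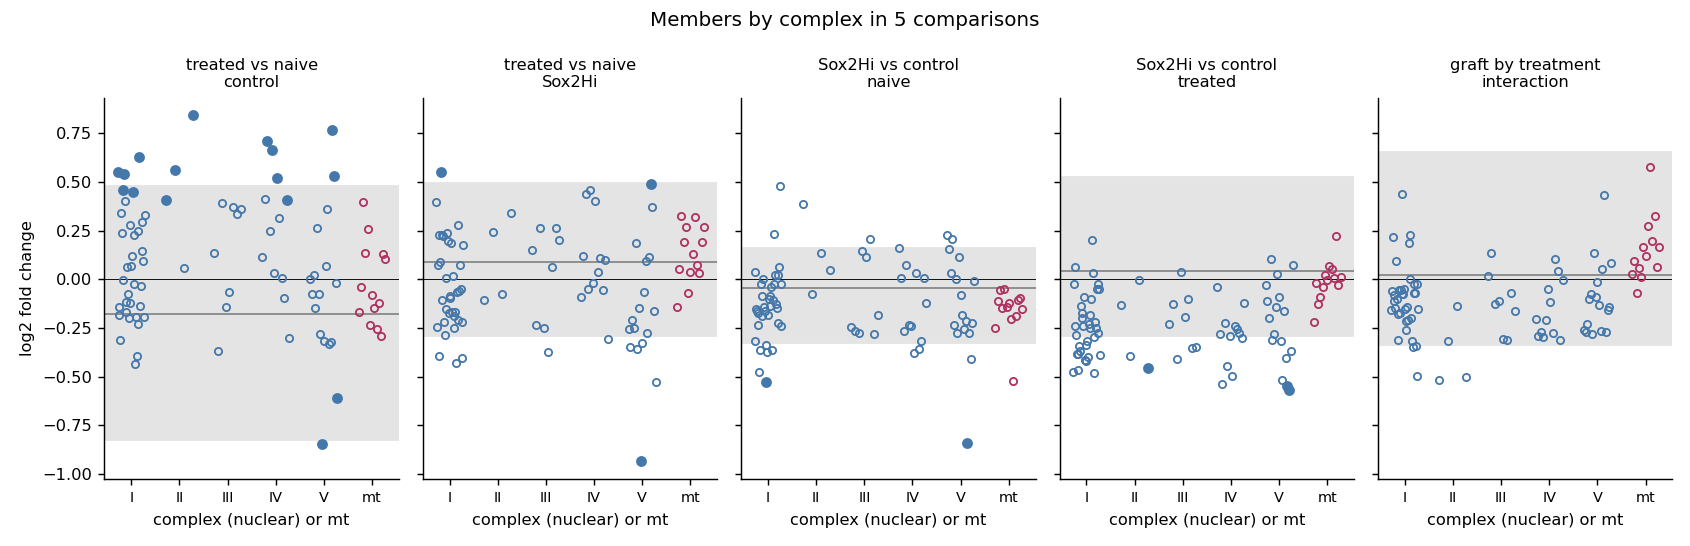
Log2 fold changes of the 89 tested members in the 5 comparisons, the nuclear members by complex and the mitochondrial ones together (mt), each point a gene and filled where adjusted p is under 0.05. The grey band spans the middle 50% of all tested genes and the grey line is their median. With this expressed-gene scaling all members lie within 1 log2 unit of 0.

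The fold changes of the family spanned a narrower range than those of all tested genes in each of the 5 comparisons. With expressed-gene scaling none of the 89 tested members differed by more than 2-fold in any of the 5, while 31.3%, 9.32%, 3.83%, 11.9% and 20.3% of all tested genes did, in the order given above. With all-gene scaling 13, 1, 0, 3 and 29 of 93 members did, against 32%, 8.98%, 6.05%, 19.9% and 43.8% of those genes. The interquartile range of the log2 fold changes over the nuclear members was 0.502 in treated against naive control tumours, against 1.30 over all genes. In the other comparisons it was 0.405 against 0.785, 0.271 against 0.488, 0.252 against 0.813 and 0.213 against 0.989. The median level was 112 scaled CPM over the nuclear members and 18.4 over all tested genes, and the part of abundance in this was not tested.

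Among the 13 mitochondrial genes, the control treated libraries differed from each other more than the groups did. mt-Cytb was at 7805, 5397 and 8194 scaled CPM in control naive, 7821 and 4315 in control treated, 5210, 6965 and 7190 in naive Sox2Hi, and 5522 and 6788 in treated Sox2Hi libraries. mt-Co1, the catalytic subunit of cytochrome c oxidase, was at 2761, 1770 and 2982, then 4082 and 2509, then 2213, 2400 and 2620, and finally 2796 and 3243. The groups overlapped for mt-Cytb throughout, and for mt-Co1 they were separate between naive and treated Sox2Hi libraries only. All 13 genes were higher in control treated replicate 1 than in replicate 2, by 1.45-fold (mt-Nd6) to 2.69-fold (mt-Nd3) with a median of 1.90-fold. Of the 76 nuclear members 8 were higher there, with a median ratio of 0.815, and of all tested genes 53.5%. Ddx3y, a gene of the Y chromosome, had 8 counts in control treated replicate 1 and 6618 in replicate 2. Each group held both kinds of library, with 4, 3854 and 1436 counts in naive control, 6, 2814 and 1007 in naive Sox2Hi, and 3980 and 7 in treated Sox2Hi libraries. With the libraries split by Ddx3y as a covariate, 12 members were called higher and 1 lower in treated control tumours (23.2% and 31.8% of all genes) and 0 and 1 in treated Sox2Hi tumours (12.5% and 4.92%). Between grafts 0 and 1 were called in naive tumours (1.92% and 10.7%), and none in treated tumours (13.6% and 5.19%), where the 3 calls were lost, or for the interaction (16.4% and 2.54%). No mitochondrial member was called in this fit.

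By edgeR, 0 of the 13 were called in any comparison and 0 had an unadjusted p under 0.05. Other scalings gave calls of opposite direction in treated control tumours. All-gene scaling called mt-Co1 higher (0.91, adjusted p = 0.0264), with 4 of the 13 at an unadjusted p under 0.05, and library totals alone called mt-Cytb (-0.75, adjusted p = 0.0351), mt-Nd2, mt-Nd4 and mt-Nd4l lower. DESeq2 called mt-Co1 higher in treated control tumours (log2 0.56, adjusted p = 0.0415), and limma-voom called mt-Nd3 lower in naive Sox2Hi than naive control tumours (-0.75, adjusted p = 0.0104). With control treated replicate 1 alone, and its spread taken from the other groups, edgeR called mt-Co1 (0.85, adjusted p = 0.0356) and mt-Co3 (0.82, adjusted p = 0.0339) higher in treated control tumours, and with replicate 2 alone it called mt-Nd3 lower (-1.02, adjusted p = 0.0218). The main values were 0.40 ± 0.26 for mt-Co1, 0.13 ± 0.29 for mt-Co2, 0.26 ± 0.29 for mt-Co3 and -0.23 ± 0.29 for mt-Cytb in control tumours, and 0.32 ± 0.26, 0.19 ± 0.29, 0.27 ± 0.29 and -0.07 ± 0.29 in Sox2Hi tumours. With standard errors of 0.22 (mt-Nd5) to 0.35 (mt-Nd3) on the log2 scale, small changes of these genes were not detectable.

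Ratios of genes within a library need no scaling factor and remove a shared change of all mitochondrial transcripts. The ratio of mt-Co1 to mt-Cytb counts was 0.354, 0.328 and 0.364 in naive and 0.522 and 0.581 in treated control libraries. It was 0.425, 0.345 and 0.364 in naive and 0.506 and 0.478 in treated Sox2Hi libraries. In both grafts all treated values lay above all naive ones, 1.58-fold in control and 1.30-fold in Sox2Hi tumours by the group means. The pair that differed in total mitochondrial share, the control treated libraries, did not straddle the naive values here. The ratios of mt-Co2, mt-Co3, mt-Nd5, mt-Nd6 and mt-Atp8 to mt-Cytb were also higher without overlap in both grafts, by 1.14-fold to 1.38-fold in control and 1.09-fold to 1.25-fold in Sox2Hi tumours. The ratio of mt-Atp6 to mt-Cytb overlapped in both, at 1.03-fold and 0.954-fold. That of mt-Nd4l was 0.00864, 0.00883 and 0.0088 in naive and 0.00829 and 0.00864 in treated control libraries, so the groups touched (0.967-fold). It was higher without overlap in Sox2Hi tumours (1.08-fold). That of mt-Nd3 overlapped in control (0.937-fold) and was higher in Sox2Hi tumours (1.30-fold). The frames of mt-Atp8 and mt-Atp6, and of mt-Nd4l and mt-Nd4, share bases, and the part of read assignment in their ratios was not tested. Those of mt-Nd1, mt-Nd2 and mt-Nd4 were higher by 1.05-fold to 1.14-fold and overlapped in 1 of the grafts each. Among nuclear genes, the ratio of Sdhd to Sdhc was 4.28 to 5.14 in control naive, 7.11 and 9.52 in control treated, 4.11 to 5.05 in naive Sox2Hi, and 5.61 and 6.34 in treated Sox2Hi libraries. The ratio of Atp5l to Atp5b was 1.48 to 1.83, 2.84 and 3.22, 1.17 to 1.42, and 1.93 and 2.59 in the same order. Both ratios separated treated from naive libraries in both grafts. Other ratios did not. Sdhb to Sdhc overlapped in both grafts (1.45-fold and 1.24-fold), and Sdha to Sdhc was separate in control (1.26-fold) and overlapped in Sox2Hi tumours (0.972-fold). A ratio shows unequal change and not which of its genes changed, and the pairs were chosen with the values known, so no test is given.

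**Figure D4:**
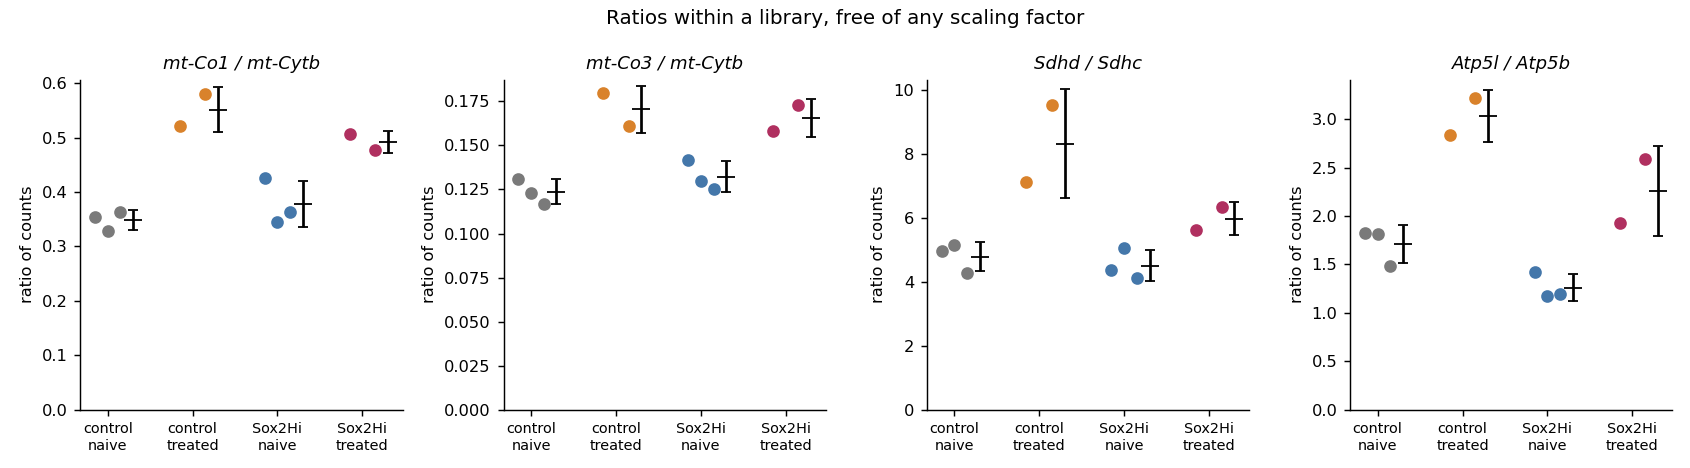
Ratios of counts within a library for 4 pairs of members, on linear axes from 0. Points are single libraries, bars the mean and SD (n = 3, 2, 3 and 2). For each pair the treated libraries of a graft lie above its naive libraries.

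Of the 98 members 9 did not pass the filter on low values. They were mostly isoforms of complex IV subunits known from other tissues, namely Cox4i2, Cox6a2, Cox6b2, Cox7a1, Cox7b2, Cox8b and Cox8c, with the hypoxia-linked Ndufa4l2 and the second Atp5o identifier. Cox8b had 0 to 7 counts, Cox8c 0 to 4, Cox7b2 0 to 7 and Cox6b2 1 to 12 counts in a library. The background rate of the receptor genes would give 86.3% to 90.9% of the counts of Cox6b2, Cox7b2 and Cox8b, more than all counts of Cox8c and of the second Atp5o, 15.3% to 20.1% of those of Cox4i2, Cox6a2 and Ndufa4l2, and 4.22% of those of Cox7a1. Their ubiquitous partners Cox4i1, Cox6a1, Cox6b1, Cox7a2 and Cox8a were far above them, with a lowest value in any library of 106 scaled CPM (Cox7a2). Cox7a1, the heart and muscle form of subunit 7a, was at 2.18, 3.15 and 1.63 scaled CPM in control naive, 7.73 and 12.8 in control treated, 2.46, 2.92 and 2.23 in naive Sox2Hi, and 3.19 and 3.89 in treated Sox2Hi libraries. It rose in treated control tumours in the all-gene fit, where it could be tested, by 2.73 ± 0.28 (log2, SE; adjusted p = 2.99e-05). That fit gave -1.99 ± 0.30 (adjusted p = 0.00709) between grafts in treated tumours and -2.52 ± 0.40 (adjusted p = 0.00465) for the interaction. The ratio of Cox7a1 to Cox7a2 counts, which needs no scaling, was 0.0113 to 0.0214 in control naive, 0.0428 and 0.0525 in control treated, 0.0196 to 0.0241 in naive Sox2Hi, and 0.0234 and 0.0239 in treated Sox2Hi libraries. Cox4i2, the hypoxia-linked form of subunit 4, had 14 to 50 counts per library and a difference of 1.45 ± 0.45 (adjusted p = 0.0275) in treated control tumours in the all-gene fit. The ratio of Cox4i2 to Cox4i1 counts overlapped there, at 0.00273, 0.00794 and 0.00304 in naive and 0.00737 and 0.00717 in treated control libraries. Ndufa4l2 (12 to 63 counts) and Cox6a2 (6 to 37 counts) were not called in any comparison of that fit.

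The members also differed by length of their coding sequence. Across the 76 tested nuclear members, the log2 difference between naive Sox2Hi and naive control tumours and the longest annotated coding length had a Spearman rho of 0.728, against -0.0904 over 9941 tested genes with a coding sequence. The 55 members under 600 coding bases had a median of -0.19 and the 21 longer ones 0.03. Atp5k and Ndufb2, the called members, are among the short ones, and the longer Sdha and Ndufv1 had differences of 0.39 and 0.48 without passing the test (adjusted p = 0.0886 and 0.0519). In treated against naive Sox2Hi tumours rho was -0.464 (0.0702 over all genes), with medians of 0.04 for the short and -0.22 for the long members. It was -0.138 in control tumours (-0.155 over all genes), 0.453 between grafts in treated tumours (0.247 over all genes) and -0.379 for the interaction (0.238 over all genes). Genes are not independent replicates and share libraries and scaling, so these are descriptions without a p-value, and the part of library quality in them was not tested.

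**Figure D5:**
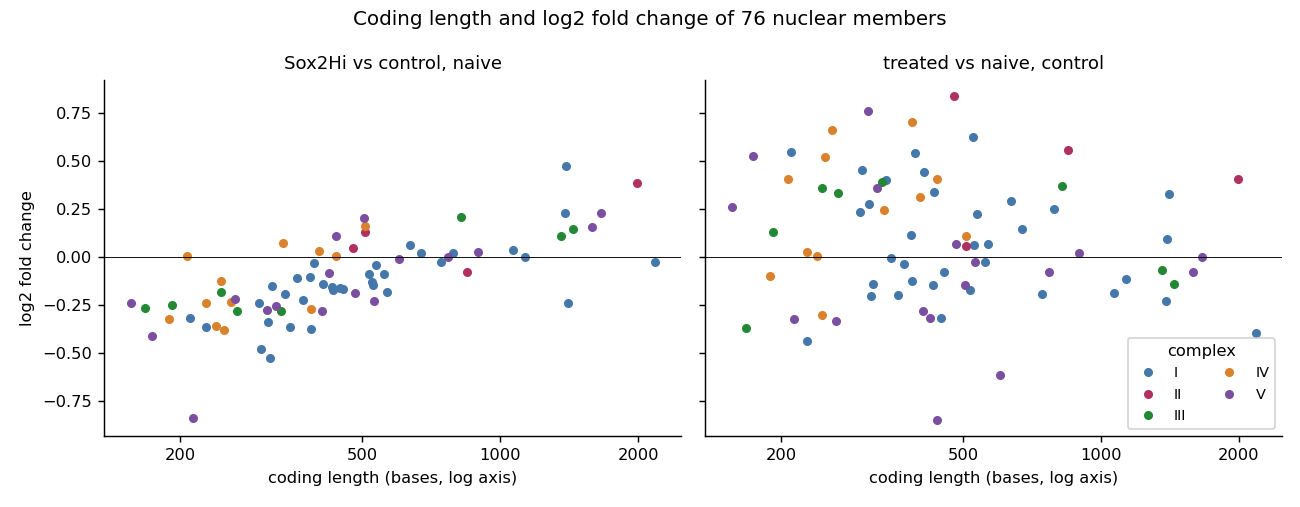
Log2 fold change of each of the 76 tested nuclear members against its longest annotated coding length (log axis), coloured by complex. In naive Sox2Hi against naive control tumours the short members lie lower than the long ones (rho 0.728). In treated against naive control tumours no such order is seen (rho -0.138).

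Factors known to act on these genes are NRF1, GABPA (an ETS-family protein), YY1 and the estrogen-related receptors. Promoters of 300 bases (250 before the start and 50 after it) were given by RefSeq on GRCm38.p6 for 68 of 84 nuclear symbols. The NRF1 motif, a palindrome shown in capitals for Atp5g2 and Atp5k below, occurred on either strand in 5 of 68 (7.35%) member promoters and in 1.47% of 17492 promoters. The letters CCGGAAG, an ETS motif, occurred in 16 (23.5%, against 12.9%), AAGATGGC of YY1 in 10 (14.7%, against 3.57%), and AAGGTCA of the estrogen-related receptors in 8 (11.8%, against 4.73%). Of the 10 with the YY1 letters 8 had them at or after the annotated start. Among the 13 members with a promoter that rose in treated control tumours, 6 had the ETS letters, 2 those of YY1, 2 those of the estrogen-related receptors and none the NRF1 motif. Among the 64 tested members with a promoter the counts were 16, 10, 8 and 5. Stretches of 30 bases around the nearest match before the start are shown, on the gene's strand with the match in capitals. They are given for 3 members that rose and had the ETS letters. Atp5g2 and Atp5k, members that fell or were lower and had the NRF1 motif, are shown too. Of these 5, Sdhd also had the letters of the estrogen-related receptors, and Atp5k had both these and the ETS letters, all after the start. Cox6a1, Ndufa11 and Uqcrc1, which also had the NRF1 motif, were not called by edgeR with expressed-gene scaling in any comparison.
Sdhd, chr9:50603877-50603906: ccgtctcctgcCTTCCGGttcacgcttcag
Cox6b1, chr7:30626124-30626153: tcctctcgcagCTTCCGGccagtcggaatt
Ndufb7, chr8:83566727-83566756: gcctagatgacCCGGAAGacactgaagggg
Atp5g2, chr15:102671070-102671099: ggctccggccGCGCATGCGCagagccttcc
Atp5k, chr5:108434430-108434459: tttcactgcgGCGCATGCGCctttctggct
The matches of Sdhd, Cox6b1, Ndufb7, Atp5g2 and Atp5k begin 46, 28, 20, 42 and 50 bases before the start. Sdhd, Cox6b1, Atp5g2 and Atp5k lie on the minus strand and Ndufb7 on the plus strand. A match describes letters and not binding.

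The factors themselves differed in level. Gabpa rose in treated control tumours by 0.72 ± 0.15 (log2, SE; adjusted p = 0.00227), was lower in Sox2Hi than control treated tumours by a log2 of -0.62 ± 0.16 (adjusted p = 0.0251), and had an interaction of -0.82 ± 0.21 (adjusted p = 0.0184). Gabpa was at 36.0, 29.98 and 34.6 scaled CPM in control naive, 49.6 and 60.6 in control treated, 37.7, 37.9 and 40.0 in naive Sox2Hi, and 36.1 and 35.4 in treated Sox2Hi libraries. Esrra, an estrogen-related receptor, fell in treated control tumours (-0.65 ± 0.21, adjusted p = 0.0231) and rose in treated Sox2Hi tumours (0.63 ± 0.21, adjusted p = 0.0494), with an interaction of 1.28 ± 0.30 (adjusted p = 0.0103). With all-gene scaling Gabpa kept these calls, but with library totals alone it lost them, at 0.21 (adjusted p = 0.31), -0.32 (adjusted p = 0.239) and -0.66 (adjusted p = 0.091). With all-gene scaling Esrra had -0.08 (adjusted p = 0.751), 0.36 (adjusted p = 0.305) and 0.45 (adjusted p = 0.229). Nrf1 was not called in any of the 5 comparisons, but with all-gene scaling it rose in treated control tumours (0.82, adjusted p = 0.00643) and had an interaction of -0.98 (adjusted p = 0.0213). The coactivators Ppargc1a and Ppargc1b were below the filter. Of the 10 regulators 7 were tested, of which 2 rose and 1 fell in control tumours, against 24.1% and 33.1% of all tested genes, and 2 rose in Sox2Hi tumours, against 15%.

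Cycs, which encodes the electron carrier cytochrome c, rose in treated control tumours. Cycs was at 200, 187 and 204 scaled CPM in control naive, 311 and 407 in control treated, 157, 184 and 192 in naive Sox2Hi, and 168 and 199 in treated Sox2Hi libraries. It rose by 0.87 ± 0.16 (log2, SE; adjusted p = 0.00139) in control tumours, had 0.05 ± 0.16 (adjusted p = 0.844) in Sox2Hi tumours, and an interaction of -0.82 ± 0.23 (adjusted p = 0.0294). With library totals alone the control value of Cycs was 0.35 (adjusted p = 0.0789) and its interaction -0.66 (adjusted p = 0.0752). Of 8 carriers, 4 rose and 1 fell in treated control tumours, against 24.1% higher and 33.1% lower of all tested genes. Slc25a4, the muscle-type ADP/ATP carrier, fell by 1.36 ± 0.25 there (adjusted p = 0.00128) and by 1.00 ± 0.25 in Sox2Hi tumours (adjusted p = 0.0198). Ucp2, an uncoupling protein of immune cells, rose by 0.90 ± 0.24 (adjusted p = 0.00933) and 0.76 ± 0.24 (adjusted p = 0.0475). The Sox2Hi call of Ucp2 was lost with DESeq2 (adjusted p = 0.0607), RLE factors (adjusted p = 0.0943), all-gene scaling (0.49, adjusted p = 0.199) and library totals alone (0.41, adjusted p = 0.189), and the control call with library totals alone (0.39, adjusted p = 0.145).

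The wider mitochondrial lists were described in the same way. Among 78 genes of the mitochondrial ribosome 2 rose and 14 fell in treated control tumours, with a median of -0.10, and 1 rose and 5 fell in Sox2Hi tumours, with a median of -0.28. Mrpl33 rose by 1.22 ± 0.14 (adjusted p = 0.00014) and Mrps6 fell by 1.48 ± 0.29 (adjusted p = 0.00164) in control tumours. Of 18 tricarboxylic acid cycle genes 1 rose and 5 fell in control tumours (median -0.25), with Dld at 0.50 and Fh1 at -1.29, and 0 rose and 3 fell in Sox2Hi tumours (median -0.32). Of 15 tested genes of mitochondrial transcription and RNA handling 1 rose and 6 fell in control tumours (median -0.20), among them Mterf1a at 0.88 and Lrpprc, which stabilises mitochondrial mRNA, at -1.02. Tfam, which packages and transcribes mitochondrial DNA, had -0.54 ± 0.24 (adjusted p = 0.0722) in control and fell by 0.76 ± 0.24 (adjusted p = 0.0445) in Sox2Hi tumours. Of 43 tested assembly factors 5 rose and 9 fell in control tumours (median -0.03), with Coa4 at 1.04 and Acad9, which helps build complex I, at -1.19. In control tumours these shares lie below the 24.1% higher and 33.1% lower of all genes, apart from the 6 of 15 that fell. In Sox2Hi tumours, where 15% of all genes were called higher and 6.57% lower, the 5 of 78 ribosomal genes that fell lay near the share of all genes and the 3 of 18 cycle genes above it. Of the 15 genes of RNA handling 0 rose and 3 fell there (median -0.21), and of the 43 assembly factors 3 rose and 1 fell (median -0.16). Among the named genes the control calls of Dld (-0.01, adjusted p = 0.967) and Mterf1a (0.38, adjusted p = 0.0962) were lost with library totals alone, and those of Fh1 (-0.78, adjusted p = 0.0678) and Lrpprc (-0.48, adjusted p = 0.141) with all-gene scaling, as was the Sox2Hi call of Tfam (-1.04, adjusted p = 0.0582). With all-gene scaling the direction in control tumours turned, with 24 higher and 1 lower among the ribosomal genes, 6 and 0 among those of the cycle, 3 and 0 of the 23 then tested of mitochondrial RNA handling, and 16 and 1 of 48 assembly factors, against 18.7% and 15.3% of those genes.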

How the data were processed

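Neutrophil RNA was sequenced in 10 libraries of 4 groups (graft by treatment). Per the submitters' processing notes, kallisto 0.44.0 and the build mm10 were used, with no roles given. The authors deposited 1 table of estimated counts per gene, rounded to whole numbers. The 96 entries that are no mouse gene (at most 0.00277% of a library) stayed out of totals and tests. GENCODE M21 (GRCm38) gave symbols and positions for 55144 identifiers. The strand setting of the counting is not given in the sources used here.

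A gene entered the fit with a mean of 5 CPM or more. The fit used edgeR 4.0.16 (R 4.3.3) with TMM factors from those genes (scaled CPM uses them) and the quasi-likelihood F-test over all 10 libraries, 1 term per group and no block. A standard error is the size of the log2 fold change over √F. Alternatives used all-gene scaling, DESeq2 1.42.0, limma-voom 3.58.1, other normalisations, left-out libraries and replicate blocks. The fit was tested on simulated data.

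The members, lists and tests were chosen with earlier results of these data known. The text names called members with the 3 highest and 3 lowest changes per comparison, all mitochondrial members, complex II, paralogous subunits, selected core subunits and, from each pathway list, the called extremes and 8 fixed genes. Same-numbered naive libraries deviated together (r = 0.334, 0.333 and 0.422), so the numbers were taken to pair them, from the data and not from the labels. Between replicates, chi-square per degree of freedom was 12.5 or more, so none looked like the same library sequenced again. Separate preparations of the same sample cannot be told apart by this.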

Additional observations from a re-analysis of the deposited data

How the results depend on the processing

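The 5 counts of called members depended on the scaling and the test. In treated against naive control tumours (16 called) the count was 40 with all-gene scaling, 37 with all genes with a count, 29 with RLE factors, 40 with library totals only, 31 with DESeq2, 25 with totals of all genes in TMM (added after the factors were seen) and 7 with only the groups compared; leaving out 1 library gave 8 to 27, without control treated replicates 2 and 1, and 18 to 38 with all-gene scaling. In Sox2Hi tumours (3 called) it was 1 with all-gene scaling, all genes with a count, the Ddx3y covariate or totals of all genes in TMM, 15 with library totals only, 9 with DESeq2, 8 with limma-voom and 5 with only the groups compared, and 0 to 8 with 1 library left out. Between grafts in naive tumours (2 called) it was 1 with library totals only or the Ddx3y covariate, 4 with DESeq2, 33 with limma-voom (36.6% of all genes), 0 with only the groups compared, and 0 to 3 with 1 library left out. In treated tumours (3 called) it was 22, 18, 11, 25 and 8 with all-gene scaling, all genes with a count, RLE factors, DESeq2 and totals of all genes in TMM, 0 with library totals only, limma-voom, only the groups compared or the Ddx3y covariate, and 0 to 6 with 1 library left out, or 1 and 23 with all-gene scaling without control treated replicate 2 and 1. For the interaction (0 called) it was 41, 42, 4, 6 and 3 with all-gene scaling, all genes with a count, RLE factors, DESeq2 and totals of all genes in TMM, and 0 to 2 with 1 library left out, or 9 and 44 with all-gene scaling without control treated replicate 2 and 1. Over the 25, 25, 26, 25 and 24 alternative fits of these comparisons, in the same order, the share of all tested genes called ran from 14.7% to 66.5%, 1.69% to 33.4%, 0.0355% to 36.6%, 2.52% to 28.1% and 12.3% to 29.8%. Every library changed at least 1 of these counts by over 1.5 times. With the replicate block by title number the counts were 1 (Sox2Hi tumours), 4 (naive; 5 in the naive libraries only) and 6 (treated), and the block by description number gave 1 (treated). The treated pair of libraries with 1 number deviated in opposite directions (r = -0.179); with the Sox2Hi treated numbers crossed the count in Sox2Hi tumours was 1. The share of mitochondrial counts in Sox2Hi treated libraries moved from 1.57% to 1.70% without mitochondrial rRNA and Gm10800 in the total. Library totals only moved the members by a median of -0.512 in treated control tumours, so that 39 of the 49 with a positive value turned negative, among them Atp5a1 at -0.51, Cox8a at -0.105, Ndufa3 at -0.0506, Ndufb7 at -0.0643 and Sdha at -0.103. Atp5s reversed in 2 of 25 alternatives, to 0.0198 with all genes with a count and to 0.0956 with all-gene scaling without control treated replicate 1. The cause was not tested; the scaling factors of the control treated libraries were 0.744 and 0.743 from expressed genes, 0.631 and 0.589 from all genes, and 0.846 to 1.22 and 0.93 to 1.40 in the other libraries. With 2 libraries in each treated group, only larger changes can be called.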

Other observations

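The ribosomal RNAs of mitochondria, which come from the same precursor strand as most of the mRNAs, were looked at after their values were seen. mt-Rnr1 was at 208, 127 and 135 scaled CPM in control naive, 302 and 226 in control treated, and 112, 112 and 105 in naive and 166 and 202 in treated Sox2Hi libraries. mt-Rnr1 rose by 0.75 ± 0.22 (log2, SE; edgeR adjusted p = 0.0125) in control and by 0.75 ± 0.22 (adjusted p = 0.0339) in Sox2Hi tumours. mt-Rnr2 rose by 0.77 ± 0.19 (adjusted p = 0.00547) and 0.69 ± 0.19 (adjusted p = 0.0276). With all-gene scaling the control values were 1.29 for mt-Rnr1 and 1.31 for mt-Rnr2, and the Sox2Hi calls were lost, at 0.48 (adjusted p = 0.252) and 0.42 (adjusted p = 0.221). That fit also gave lower values in Sox2Hi than control treated tumours, at -0.96 (adjusted p = 0.0319) for mt-Rnr1 and -0.95 (adjusted p = 0.0159) for mt-Rnr2, and an interaction for mt-Rnr2 of -0.89 (adjusted p = 0.0317). The ratio of the 13 mRNAs to both rRNAs, which needs no scaling, was 6.45 to 9.49 in control naive, 3.65 and 5.06 in control treated, and 7.92 to 10.9 in naive and 5.998 and 6.1996 in treated Sox2Hi libraries. Treated libraries were below naive ones in both grafts. How rRNA capture differed between libraries was not tested.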
